A study of Mus musculus with 9 samples.

Results

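The genes described here are 8 genes known from endothelial cells, the cells that line blood vessels: the receptors *Kdr*, *Flt1*, *Tek* and *Tie1*, the junction and surface genes *Cdh5*, *Pecam1* and *Emcn*, and the secreted *Vwf*. They were chosen by gene symbol, with all their probes, and make up 14 of the 46643 probes and 8 of the 19406 named genes of the array. Mouse embryonic stem cells (mESCs), labelled G6B-2 and called B6G-2 in the paper, formed embryoid bodies (EBs, floating cell aggregates) and later neurospheres, and total RNA was measured on Illumina MouseWG-6 arrays. The study asked how retinoic acid (RA), the active form of vitamin A, acts on the neural differentiation of these cells.

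The 9 arrays, 1 per condition, held ES cells of day 0, EBs of day 2, EBs of day 8 exposed to vehicle or to 1, 10 or 100 nM RA, and neurospheres of day 29 exposed to vehicle or to 10 or 100 nM RA. RA or vehicle was present for 4 days, from day 2 to day 6, so EBs of day 8 and neurospheres were both measured after its withdrawal. The labels give the vehicle as 0.1% ethanol, while the text of the series names DMSO. The labels give the last stage as day 29 and the paper as day 36, and day 29 is used here. All conditions come from 1 cell line. For each condition of the paper, RNA of biological replicates was pooled before hybridization. The 1 nM array is known from its label only. No value therefore has a replicate error, and no test between conditions is possible. In such mixed cultures, fewer cells of a type and less RNA per cell cannot be told apart.

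Endothelial cells and their progenitors respond to vascular endothelial growth factors (VEGF) through *Kdr*, the main signalling receptor, and *Flt1*, which binds VEGF tightly and limits what reaches *Kdr*. Angiopoietins act later through *Tek*, with *Tie1* as its partner receptor, and steady the vessel wall. *Cdh5* (VE-cadherin) and *Pecam1* hold neighbouring endothelial cells together, *Emcn* is a surface sialomucin and *Vwf* is the secreted factor that captures platelets. Several are also found outside endothelium: *Pecam1* on mESCs, platelets and leukocytes, *Tek* on early blood cells, *Vwf* in megakaryocytes and *Flt1* in trophoblast.

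The genome upstream of 5 member genes (*Emcn*, *Tek*, *Tie1*, *Kdr* and *Flt1*) was in the RefSeq promoter table used here (build GRCm38.p6), which gives 250 bases before and 50 after each transcription start. 3 of these promoters are shown because their genes bear on the results below: *Tek* and *Tie1*, 2 partner receptors of which 1 was bright in neurospheres and the other was not detected there, and *Emcn*, of which 1 probe was higher at higher RA doses. The *Tek* promoter lies at chr4:94739039-94739338 on the plus strand, *Tie1* at chr4:118489800-118490099 on the minus strand and *Emcn* at chr3:137340828-137341127 on the plus strand. Capitals mark matches, on either strand, to the ETS motif (CAGGAA or CCGGAA), the GATA motif (AGATAA or TGATAA) and the core motif of RA receptors (AGGTCA or GGGTCA or AGTTCA).
Tek: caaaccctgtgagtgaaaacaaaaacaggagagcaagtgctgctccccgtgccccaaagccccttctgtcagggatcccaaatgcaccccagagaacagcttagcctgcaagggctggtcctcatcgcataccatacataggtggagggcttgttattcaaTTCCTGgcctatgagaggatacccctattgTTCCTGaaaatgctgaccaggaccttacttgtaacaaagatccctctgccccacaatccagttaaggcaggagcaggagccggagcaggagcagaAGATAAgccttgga
Tie1: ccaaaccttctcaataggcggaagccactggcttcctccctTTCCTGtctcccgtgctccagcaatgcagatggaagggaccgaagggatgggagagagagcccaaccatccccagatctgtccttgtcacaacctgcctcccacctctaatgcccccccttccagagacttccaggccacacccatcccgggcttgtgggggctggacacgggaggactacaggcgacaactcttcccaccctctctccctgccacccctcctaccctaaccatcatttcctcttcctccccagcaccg
Emcn: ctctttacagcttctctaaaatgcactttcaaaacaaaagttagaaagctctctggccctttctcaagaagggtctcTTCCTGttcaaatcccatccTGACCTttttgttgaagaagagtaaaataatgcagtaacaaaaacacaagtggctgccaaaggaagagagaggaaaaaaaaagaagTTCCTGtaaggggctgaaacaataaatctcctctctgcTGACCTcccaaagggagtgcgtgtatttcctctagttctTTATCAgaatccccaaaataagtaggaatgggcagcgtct

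ETS and GATA factors are regulators of endothelial and blood genes, and RA receptors bind pairs of core motifs. The *Tek* promoter held 2 ETS matches and 1 GATA match, the *Tie1* promoter 1 ETS match, and the *Emcn* promoter 2 ETS matches, 1 GATA match and 2 RA receptor matches. *Kdr* had 1 ETS match and 1 RA receptor match, and *Flt1* had no match to any of these letters. Of all 32851 promoters in the table, 41.4% held an ETS match, 18.6% a GATA match and 37.5% an RA receptor match, so such short matches are frequent. A direct repeat, with 2 copies of AGGTCA set 5 bases apart, was in none of the 5 member promoters and in 0.00913% of all promoters. A repeat this rare is missing from nearly any 5 promoters, so nothing is read from its absence. Repeats with the other core letters or other spacings were not searched. These matches describe letters and not binding.

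Signals are linear and scaled so that all arrays have the same median over the 16146 probes detected on every array. A probe was called detected at an unscaled signal of at least 29.1, the typical upper end of background probes. Of the 14 member probes, 11 were detected on at least 1 array, 7 on all 9 arrays and 3 on none. Those 7 include *Vwf* probe 4670519 and *Emcn* probe 105670735, which read 53.3 and 60.6 unscaled in neurospheres of 100 nM RA. The upper end of background on that array was higher, at 77.6. Among all probes, 63.5% were detected on at least 1 array and 34.6% on all 9. The 3 probes never detected were 1 each of *Kdr* (3610286), *Pecam1* (104210358) and *Vwf* (102190215). Probes differ in how well they bind, so signals are compared between arrays and not between probes.

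A difference is the log2 of the ratio of 2 scaled signals and was called at 2-fold or more. Where 1 of the 2 arrays did not detect the probe, its detection level took the place of the signal and the fold is a lower bound. As a yardstick, the spread of log2 differences between 1 nM RA and vehicle on day 8, including any effect of 1 nM RA, was taken for probes of like signal. Its SD ran from 0.15 for the brightest decile of probes to 0.58 among dim ones, so small folds of dim probes are weak evidence. It comes from EBs of day 8 and does not measure how neurosphere arrays vary.

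The label of these genes was set against the arrays before the results. The *Tie1* probe was at most 31.5, on the array of 100 nM RA on day 8, and was not detected on the other 8 arrays, where it ran from 4.5 to 19. The *Kdr* probe annotated to the RefSeq transcript stayed between 4.1 and 28.7 and was detected on no array. Of 28 other endothelial genes with a probe, 22 were detected on at least 1 array, such as *Esam* at up to 16904. The other 6 were detected on no array: *Icam2*, *Clec14a*, *S1pr1*, *Sele*, *Procr* and *Lyve1*. Among all probes 63.5% were detected on at least 1 array, though each listed gene is read by its brightest probe. Of 14 endothelial transcription factors, 13 were detected on at least 1 array and *Ets1* on none. *Erg*, an ETS factor that maintains endothelial identity, was detected on 2 arrays with 43.8 as its highest value. The member genes did not share 1 pattern over the arrays, and the name endothelial stands here for the genes and not for cells found in the cultures.

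**Figure D1:**
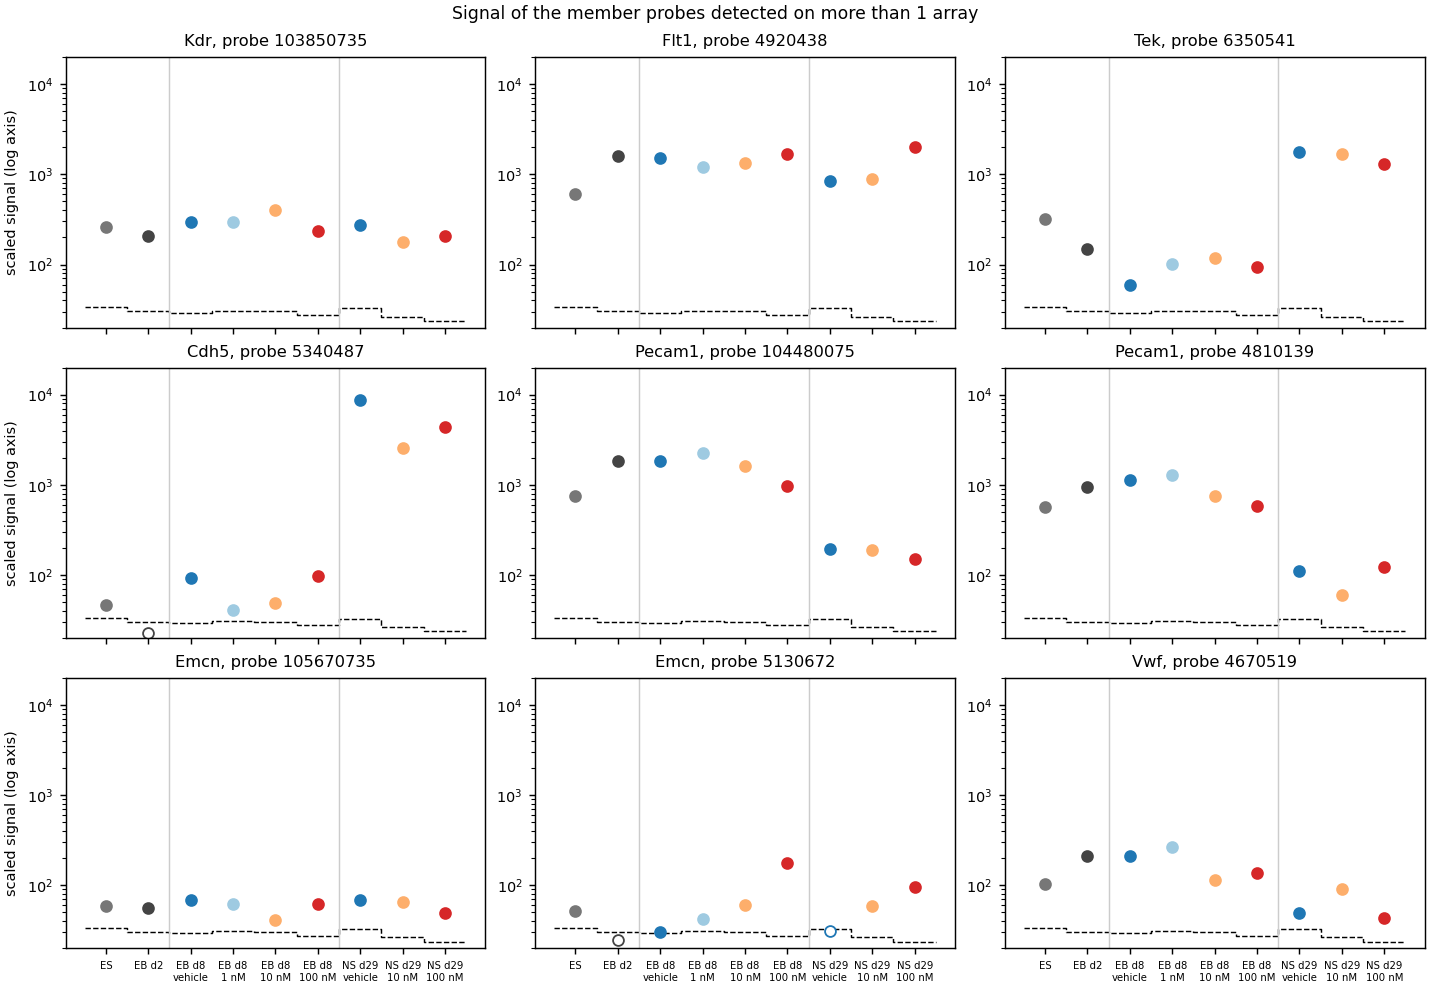
Scaled signal (log axis) of the 9 member probes detected on more than 1 array, with the 9 conditions from ES cells to neurospheres along the horizontal axis. Each point is 1 array, open points are undetected, and the dashed line is the detection level. *Cdh5* and *Tek* are highest on the 3 neurosphere arrays, where both *Pecam1* probes are lowest.

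*Cdh5*, the cadherin of endothelial junctions, was dim until day 8 and bright in neurospheres. Its signal was 45.9 in ES cells, 22.5 (undetected) in EBs of day 2, and 91.8, 40.6, 48.2 and 96.7 in EBs of day 8 with vehicle, 1, 10 and 100 nM RA. In neurospheres of day 29 it was 8613 with vehicle, 2566 with 10 nM and 4340 with 100 nM RA. All 3 neurosphere arrays stood far above the 6 earlier arrays, and the gap from the lowest neurosphere to the highest EB was 4.73 on the log2 scale.

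The difference of vehicle neurospheres from vehicle EBs of day 8 was 6.55 on the log2 scale for *Cdh5*, a 93.8-fold higher signal. It was 5.74 with 10 nM RA and 5.49 (44.9-fold) with 100 nM RA. Among neurospheres, *Cdh5* was lower with RA than with vehicle, by 3.36-fold at 10 nM (log2 difference -1.75) and by 1.98-fold at 100 nM (-0.99). The signal at 100 nM was 1.69-fold above that at 10 nM (0.76), so the 2 doses were not in dose order. The yardstick SD at this brightness was 0.15 to 0.18, and all 3 of these gaps were more than 2 yardstick SD. That SD is of EBs of day 8, so it does not show how secure a gap between neurosphere arrays is. The 100 nM difference lay just inside 2-fold and passed it with some other scalings of the arrays (-1.21 to -0.51).

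In the dim range of the EBs, the *Cdh5* values varied without dose order. The signal was 40.6 with 1 nM RA against 91.8 with vehicle on day 8 (log2 difference -1.18), the only called difference of a member probe at that dose. It was 48.2 with 10 nM against 91.8 with vehicle (-0.93), and 96.7 with 100 nM against 91.8 with vehicle (0.07). The yardstick SD here was 0.58 for the lowest dose, and the difference between 1 nM and vehicle is itself part of the yardstick.

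*Tek*, the angiopoietin receptor, had a low point in EBs of day 8 and was highest in neurospheres. Its signal was 317.8 in ES cells, 148.4 in EBs of day 2, and 58.6, 100.7, 117.2 and 94.1 in EBs of day 8 with vehicle, 1, 10 and 100 nM RA. In neurospheres it was 1765, 1661 and 1305 with vehicle, 10 and 100 nM RA. *Tek* was thus 2.14-fold lower in EBs of day 2 than in ES cells (-1.10), and 2.53-fold lower again in vehicle EBs of day 8 than in EBs of day 2 (-1.34). With a detection signal of 100 the second difference was bounded at -0.56 and not called.

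*Tek* was 30.1-fold higher in vehicle neurospheres than in vehicle EBs of day 8 (4.91). With 10 nM RA this stage difference was 3.82 and with 100 nM it was 3.79. All 3 RA arrays of day 8 were above their vehicle array, by 0.78 at 1 nM, 1.00 at 10 nM and 0.68 at 100 nM. None of these reached 2-fold, the 10 nM value (1.999-fold) only just missing it, and the vehicle array that all 3 share was the lowest *Tek* value of the series. In neurospheres RA went with equal or lower *Tek* signals, by -0.09 at 10 nM and -0.44 at 100 nM.

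*Tie1*, the partner of *Tek*, gave no signal to set beside these values. In neurospheres it read 5.6, 4.5 and 9 with vehicle, 10 and 100 nM RA, all undetected, while *Tek* was at its highest. An undetected probe limits what can be said and does not show that the gene was absent. The 1 detected value, 31.5 with 100 nM RA on day 8 against 7.6 with vehicle, gives a difference of at least 0.10 (1.07-fold).

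The angiopoietin and VEGF ligands were also read from their probes. *Angpt2*, the context-dependent ligand of *Tek*, was 184.6 with 100 nM RA on day 8 against 13.9 (undetected) with vehicle, at least 6.29-fold higher (2.65). It was 75.1 with 1 nM and 39.3 with 10 nM RA on day 8, not in dose order, and 87 in EBs of day 2. *Angpt1*, the activating ligand, was detected on 3 arrays only, with 87.5 in neurospheres of 10 nM RA against 5.6 (undetected) with vehicle, at least 2.67-fold higher (1.42). *Ptprb*, the phosphatase that opposes *Tek*, was detected on the 3 neurosphere arrays alone, at 98.6, 77.5 and 70.5 with vehicle, 10 and 100 nM RA.

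*Pecam1*, the platelet and endothelial adhesion molecule that mESCs also carry, followed an almost opposite course to *Cdh5*. Its brighter probe (104480075) read 750.4 in ES cells, 1853 in EBs of day 2, and 1829, 2232, 1623 and 973.3 in EBs of day 8 with vehicle, 1, 10 and 100 nM RA. In neurospheres it read 194.4, 188.6 and 151.4 with vehicle, 10 and 100 nM RA. Its other detected probe (4810139) read 572.3 in ES cells, 953 on day 2, and 1142, 1274, 760.1 and 586.3 on day 8 in the same order of doses. That probe read 110.1, 59.8 and 122.9 in neurospheres. Both probes had their 3 neurosphere values below all 6 earlier arrays.

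In vehicle neurospheres *Pecam1* was 9.41-fold lower than in vehicle EBs of day 8 by the brighter probe (-3.23) and 10.4-fold lower by the other (-3.37). On day 8, the 2 probes were 1.88-fold and 1.95-fold lower with 100 nM RA than with vehicle (-0.91 and -0.96), more than 2 yardstick SD but inside 2-fold. At 10 nM the differences from vehicle were -0.17 and -0.59, and at 1 nM 0.29 and 0.16. The 2 probes had the same sign in 9 of 12 comparisons, with a median gap of 0.42 between them. The widest gap, 1.36, was between 100 nM and 10 nM RA in neurospheres, where the dimmer probe was 1.04 higher and the brighter one -0.32.

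*Vwf*, the blood clotting glycoprotein, was read by 1 working probe (4670519). Its signal was 104 in ES cells, 210.2 in EBs of day 2, and 214.2, 263.4, 113.4 and 137 in EBs of day 8 with vehicle, 1, 10 and 100 nM RA. In neurospheres it was 49.7, 91.6 and 43.5 with vehicle, 10 and 100 nM RA. The EBs of day 2 were 2.02-fold above ES cells (1.02), and vehicle neurospheres were 4.31-fold below vehicle EBs of day 8 (-2.11). With a detection signal of 100 these differences were bounded at 0.87 and -0.93, and neither was called. RA differences from vehicle were -0.92 at 10 nM and -0.65 at 100 nM on day 8, and 0.88 and -0.19 in neurospheres, all inside 2-fold.

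*Pecam1* was high and low on nearly the same arrays as genes of pluripotent cells, and *Vwf* followed them less closely. The summed signal of 12 such genes was 81.2% of its maximum in ES cells, 86.8% on day 2, and 89.6%, 100%, 72.9% and 48.1% in EBs of day 8 with vehicle, 1, 10 and 100 nM RA. It was 11.6%, 9.89% and 6.61% in neurospheres. The brighter *Pecam1* probe was at 33.6% and 83.0% of its maximum in ES cells and EBs of day 2, then at 81.9%, 100%, 72.7% and 43.6%, and at 8.71%, 8.45% and 6.78% in neurospheres. ES cells were thus the array on which the list and *Pecam1* stood apart. *Vwf* was at 39.5% and 79.8% of its maximum in ES cells and EBs of day 2, at 81.3%, 100%, 43.1% and 52.0% on day 8 and at 18.9%, 34.8% and 16.5% in neurospheres. It was below the list in ES cells and at 10 nM on day 8, and above it in neurospheres. *Nanog*, a factor of the pluripotent state, was 210.2 in vehicle neurospheres against 16432 in vehicle EBs of day 8. The part of such cells in these values was not tested.

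**Figure D2:**
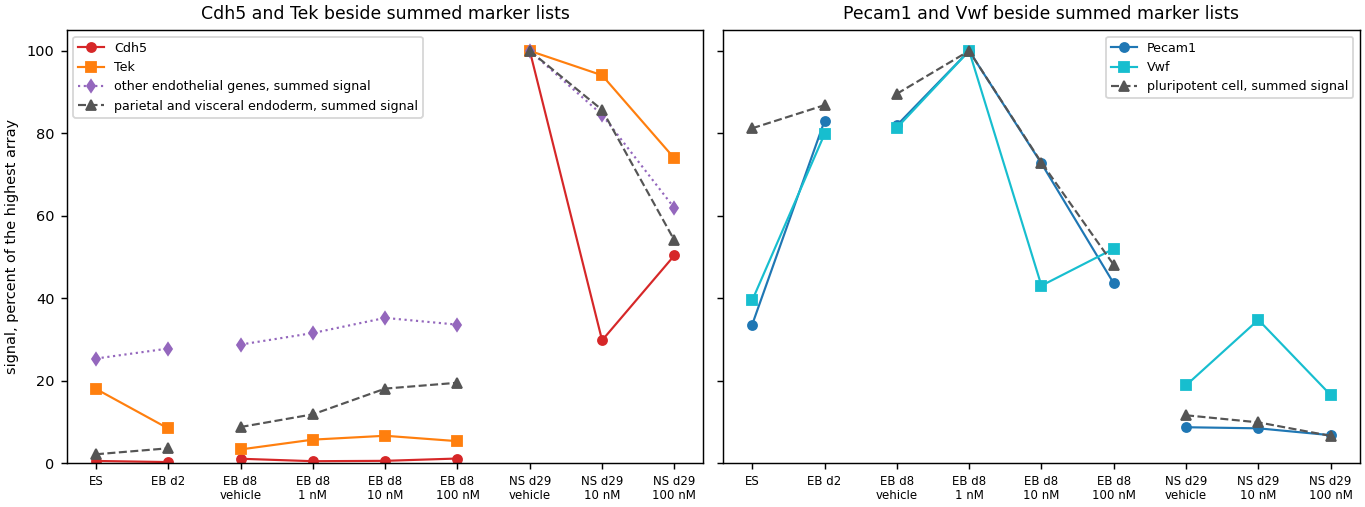
Signal as percent of the highest array for *Cdh5* and *Tek* (left) and *Pecam1* and *Vwf* (right) beside summed signals of marker lists, over the 9 arrays. Lines are a guide to the eye. *Cdh5*, *Tek* and the summed list of parietal and visceral endoderm are all at 100% in vehicle neurospheres, and *Pecam1*, *Vwf* and the pluripotent list are all at 100% with 1 nM RA on day 8.

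*Cdh5* and *Tek* were high on the arrays where genes of parietal and visceral endoderm, the extraembryonic layers that mESC aggregates readily form, were high. The summed signal of 12 such genes was 2.15% of its maximum in ES cells and 3.60% on day 2. It was 8.76%, 11.8%, 18.1% and 19.5% on day 8 with vehicle, 1, 10 and 100 nM RA, and 100%, 85.7% and 54.0% in neurospheres with vehicle, 10 and 100 nM. All 12 were detected in vehicle neurospheres. Of them 10 were at least 2-fold higher there than in vehicle EBs of day 8 and 0 lower, with a median difference of 3.51. Among all probes 19.0% were higher and 18.4% lower. *Foxa2* was 4342 against 18.5 (undetected), at least 148-fold higher (7.21), and *Ttr*, a transport protein of visceral endoderm, 20233 against 300.5 (6.07). *Cdh5* was at 29.8% and 50.4% of its maximum in neurospheres of 10 and 100 nM RA, so its order of doses was not that of the list. Sums of some other lists were also highest in vehicle neurospheres, but bright genes weigh most in a sum. The summed signal of 28 other endothelial genes, 1 of them (*Thbd*) also in the endoderm list, was between 25.4% and 35.2% of its maximum up to day 8. It was at 100%, 84.5% and 61.9% in neurospheres, with *Esam* alone at 16904 with vehicle. By gene, 9 of 21 tested were at least 2-fold higher in vehicle neurospheres than in vehicle EBs of day 8, and 8 lower. The sum of 9 mesoderm genes was 14309 in vehicle neurospheres, against 2716 in vehicle EBs of day 8. Its brightest genes there were *Pdgfra* (7625) and *Gata4* (5675), and of 6 tested 2 were higher and 2 lower. The part of the cell types of these lists in the *Cdh5* and *Tek* values was not tested.

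Other endothelial genes were divided between the stages. Of the 21 tested between vehicle neurospheres and vehicle EBs of day 8, 9 passed 2-fold upwards and 8 downwards, with a median difference of 0.19 against 0 for all probes. Of all probes, 19.0% were higher and 18.4% lower. *Vcam1*, an adhesion molecule, was 1216 against 40.3 (4.92) and *Ramp2*, part of the adrenomedullin receptor, was 11265 against 455.3 (4.63). *Mcam* was 64.6 against 1106 (-4.10) and *Eng*, a co-receptor of the TGF-beta family, was 19.9 (undetected) against 242.6, at least 7.41-fold lower (-2.89). *Esam*, a junction molecule, was 16904, 10150 and 7229 in neurospheres of vehicle, 10 and 100 nM RA.

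Of 12 endothelial transcription factors tested between the same 2 arrays, 7 passed 2-fold upwards and 3 downwards, beside the same 19.0% and 18.4% of all probes. *Sox17* was 6664 against 183.2 (5.19) and *Hey2* 517 against 32.2 (4.00), while *Etv2*, which starts the endothelial and blood programme, was 27.9 (undetected) against 380.8, at least 11.6-fold lower (-3.54). *Klf2* was 1268 against 5824 (-2.20). *Sox17* is also in the endoderm list and *Klf2* in the pluripotent list.

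*Flt1*, the high-affinity VEGF receptor, was detected on all arrays by 1 of its 2 probes (4920438). The signal was 603.6 in ES cells, 1580 in EBs of day 2, and 1518, 1192, 1345 and 1669 in EBs of day 8 with vehicle, 1, 10 and 100 nM RA. In neurospheres it was 843, 888.5 and 2021 with vehicle, 10 and 100 nM RA. The lowest value was that of ES cells and the highest that of 100 nM neurospheres, and the 4 arrays of day 8 lay between 1192 and 1669. EBs of day 2 were 2.62-fold above ES cells (1.39). Neurospheres of 100 nM RA were 2.40-fold above those of vehicle (1.26) and 1.19 above those of 10 nM on the log2 scale. The other probe (3830167) reached 29.6 on 1 array and bears on none of this.

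*Kdr*, the main VEGF receptor, was read by a probe annotated to a cDNA clone (103850735), and its level varied little. The signal was 259.8 in ES cells, 207.9 on day 2, and 297.8, 299.8, 404.2 and 237.7 on day 8 with vehicle, 1, 10 and 100 nM RA. In neurospheres it was 273.4, 178.7 and 207.8 with vehicle, 10 and 100 nM RA. No 2 neighbours in the order of these levels differed by more than 2 yardstick SD. The only called difference was between the stages with 10 nM RA, where neurospheres were 2.26-fold below EBs of day 8 (-1.18). Because the probe of the RefSeq transcript was silent, it is unknown how far the clone probe stands for the *Kdr* message.

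Among the ligands of these receptors, *Vegfa* was between 1125 and 2414 on all arrays. Against vehicle, 2 of 8 ligands were at least 2-fold higher and 0 lower with 100 nM RA in neurospheres, where 11.9% of all probes were higher. *Vegfd* was 1606 with 100 nM RA against 207.2 with vehicle (2.95), and *Vegfc* was 407.7 against 70.1 (2.54), both ligands of the lymphatic receptor *Flt4*. At 10 nM, *Vegfc* was 191.2 against 70.1 with vehicle (1.45). *Nrp1*, a co-receptor for VEGF that axons also use, was 3321 with 100 nM RA against 1185 with vehicle in neurospheres (1.49), and 2044 against 644 on day 8 (1.67). *Nrp2* was 708 against 81 in neurospheres (3.13). These 2 genes and *Flt1* were high on the same neurosphere array. On it the summed signal of 8 astrocyte and neural progenitor genes was 54227, against 2538 with vehicle, and *Gfap* alone was 25510. With 10 nM RA the sum was 19787. There *Flt1* (888.5 against 843) and *Nrp1* (1166 against 1185) were close to vehicle, and *Nrp2* was 215 against 81. Of 21 other endothelial genes tested between 100 nM RA and vehicle in neurospheres, 6 were at least 2-fold higher and 2 lower. They included *Icam1* (2785 against 545.5) and *Egfl7* (3276 against 10070). Of 9 mural and smooth muscle genes, 4 were higher and 1 lower. Among all probes 11.9% were higher and 11.7% lower. The part of the cell types of these lists in the *Flt1*, *Nrp1* and *Nrp2* values was not tested.

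*Emcn*, the sialomucin of capillaries and veins, had 2 probes that did not follow each other. Probe 5130672 read 51.9 in ES cells, 24.8 (undetected) on day 2, and 30.2, 42.7, 60.5 and 175.2 on day 8 with vehicle, 1, 10 and 100 nM RA, each dose above the one before. In neurospheres it read 30.9 (undetected), 59.4 and 96.2 with vehicle, 10 and 100 nM RA, in the same order. In the unscaled signals it read 27.5, 65.4 and 117.7 on those arrays. The upper end of background rose in the same order there, at 32.2, 56.0 and 77.6. The part of background in the dose order of the neurospheres was not tested. Against vehicle on day 8 the differences were 0.50, 1.00 and 2.54, which are 1.41-fold, 2.00-fold and 5.80-fold. In neurospheres they were at least 0.86 at 10 nM and at least 1.55 (2.94-fold) at 100 nM.

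The other *Emcn* probe (105670735) lay between 41.2 and 68.9 on all 9 arrays. Its differences from vehicle on day 8 were -0.14, -0.74 and -0.14 at 1, 10 and 100 nM, and -0.08 and -0.47 at 10 and 100 nM in neurospheres. The probes had the same sign in 2 of the 7 comparisons in which both were detected on both arrays, and were up to 2.68 apart. Both carry the same transcript annotation, and the files do not show which part of the gene each one reads. The vehicle values of the first probe were close to the detection level, and with a detection signal of 100 its difference at 100 nM was bounded at only 0.80 on day 8 and had no fold in neurospheres. With a detection signal of 50 the bounds at 10 and 100 nM were 0.27 and 1.80 on day 8 and 0.08 and 0.77 in neurospheres, so only the day 8 call at 100 nM was kept.

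On the array of 100 nM RA on day 8, lists of other cell types also differed from vehicle, where 4.71% of all probes were at least 2-fold higher and 4.96% lower. Of 7 neuron genes tested, 5 were higher and 0 lower, such as *Dcx* (727.2 against 38.6, a difference of 4.24) and *Snap25* (322.5 against 43.9, 2.88). Of 12 endoderm genes 7 were higher and 0 lower, and of 11 pluripotent genes 0 were higher and 7 lower. Of 13 endothelial transcription factors 4 were higher and 0 lower, such as *Sox7* (486 against 97.9, 2.31), and of 20 other endothelial genes 2 were higher and 1 lower. Of 10 mural and smooth muscle genes 1 was higher (*Myh11*, 880.1 against 5.8, undetected, at least 4.91) and 0 lower. Of 7 blood genes 1 was higher (*Runx1*, 315.6 against 144.8, 1.12) and 1 lower (*Ppbp*, 433.4 against 1506, -1.80). The part of these cells in the *Emcn* values was not tested.

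**Figure D3:**
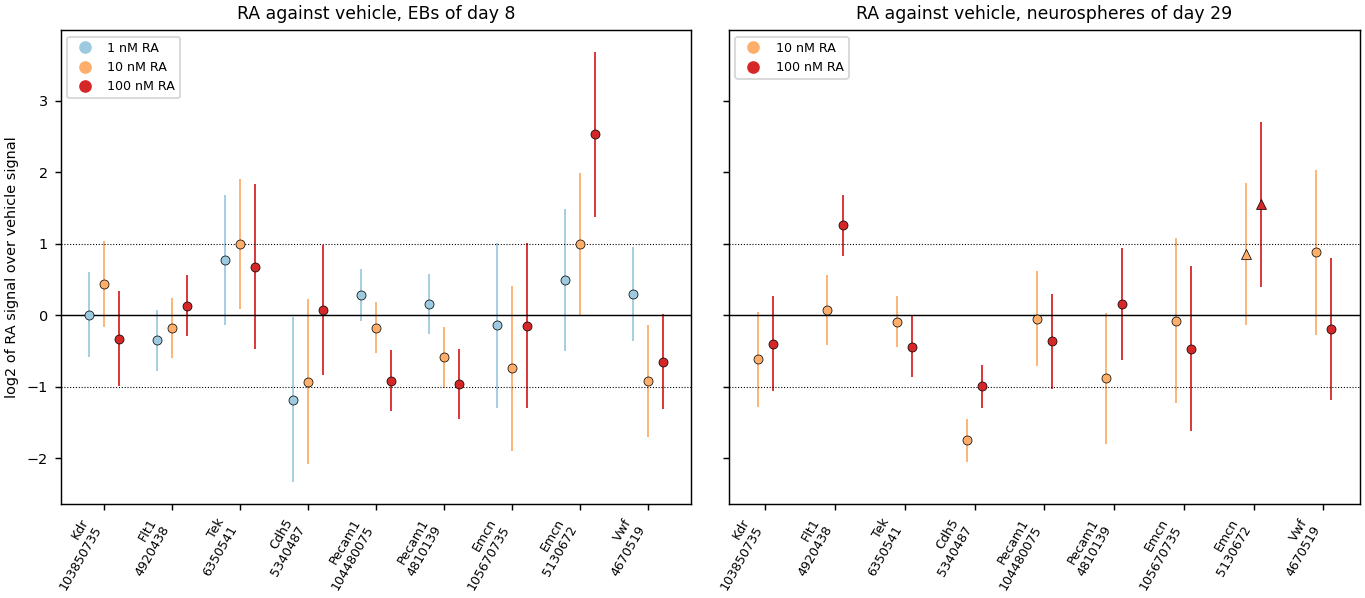
Log2 ratio of RA over vehicle signal for 9 member probes in EBs of day 8 (left) and neurospheres of day 29 (right). Bars are 2 yardstick SD, taken from EBs of day 8 in both panels, dotted lines mark 2-fold, and upward triangles are lower bounds. *Emcn* probe 5130672 stands highest at 100 nM on day 8, *Flt1* is above 2-fold at 100 nM in neurospheres, and *Cdh5* is lowest at 10 nM in neurospheres.

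Between RA and vehicle, few members differed by 2-fold or more. On day 8, 0 of 10 tested probes were higher and 1 (*Cdh5*) lower with 1 nM RA than with vehicle, where 2.40% of all tested probes were higher and 1.69% lower. With 10 nM, 1 (*Emcn*) was higher and 0 lower of 10, against 3.03% higher and 3.91% lower among all probes. With 100 nM, 1 (*Emcn*) was higher and 0 lower of 11, against 4.71% and 4.96%. The 3 doses share the vehicle array. Each of these counts of 1 rests on a single probe that was dim in the vehicle or RA EBs, and nothing is read from them about the members as a group.

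In neurospheres, 0 of 9 tested member probes were higher and 1 (*Cdh5*) lower with 10 nM RA than with vehicle, where 12.0% of all probes were higher and 8.08% lower. With 100 nM, 2 (*Flt1* and *Emcn*) were higher and 0 lower of 9, against 11.9% and 11.7% of all probes. The median member difference was -0.08 at 10 nM and -0.36 at 100 nM, against -0.09 and -0.21 for all probes. These arrays also share their vehicle array.

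Between the 2 RA doses on day 8, 2 member probes (*Emcn* and *Cdh5*) of 10 were higher and 0 lower with 100 nM than with 10 nM, against 3.78% and 3.50% of all probes. In neurospheres, 2 (*Flt1* and *Pecam1* probe 4810139) of 9 were higher and 1 (*Vwf*) was lower with 100 nM than with 10 nM, against 7.07% and 8.73%. The *Cdh5*, *Pecam1* and *Vwf* calls rest on a dim value in 1 of the 2 arrays, 48.2, 59.8 and 43.5. In the unscaled signals, *Pecam1* read 65.8 with 10 nM and *Vwf* 53.3 with 100 nM RA, while the upper end of background (the 0.99 quantile) was 56.0 and 77.6 on those 2 arrays, against 24.7 to 32.2 on the other 7.

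Stages were compared in the same way. Between EBs of day 2 and ES cells, 3 of 9 tested probes (*Flt1*, *Pecam1* and *Vwf*) were higher and 1 (*Tek*) lower, where 6.17% of all probes were higher and 5.34% lower. Between vehicle EBs of day 8 and EBs of day 2, 1 of 10 (*Cdh5*, at least 3.04-fold) was higher and 1 (*Tek*) lower, against 5.85% and 5.05%. Between vehicle neurospheres and vehicle EBs of day 8, 2 of 10 (*Cdh5* and *Tek*) were higher and 3 (both *Pecam1* probes and *Vwf*) lower, against 19.0% and 18.4%.

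The same stage difference within RA gave like counts. With 10 nM, 2 of 9 probes (*Cdh5* and *Tek*) were higher and 3 (both *Pecam1* probes and *Kdr*) lower in neurospheres than in EBs of day 8, against 16.1% and 15.0% of all probes. With 100 nM, 2 of 10 (*Cdh5* and *Tek*) were higher and 3 (both *Pecam1* probes and *Vwf*) lower, against 15.9% and 15.7%. *Pecam1* differed by -3.11 and -3.67 with 10 nM and by -2.69 and -2.25 with 100 nM, and *Vwf* by -1.65 with 100 nM, bounded at -0.75 and not called with a detection signal of 100. The 3 stage comparisons share no array with each other.

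The genes whose log2 signals followed each member most closely over the 9 arrays were listed by Pearson's r among 16940 probes, as a description over 9 points that fall mostly into neurospheres and the rest. For *Cdh5* they were *Tnfaip2* (0.997), *Coq8b* (0.995) and *Ubr2* (0.994). *Tnfaip2* read 1163, 451 and 686.4 in neurospheres of vehicle, 10 and 100 nM RA, the order of *Cdh5*, and was at most 46.2 before. For *Tek* they were *Slc6a9* (0.988), *Lpxn* (0.988) and *Igsf1* (0.987), and for *Pecam1* *Aire* (0.996), *Rnf17* (0.995) and *Stat4* (0.995).

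*Slc6a9*, a glycine transporter, had the low point of *Tek* on day 8, with 972.7 in ES cells, 378 in vehicle EBs of day 8 and 1934 in vehicle neurospheres. *Aire*, the autoimmune regulator that ES cells also express, was 428.8 in ES cells, 2240 with 1 nM RA on day 8 and at most 30.4 in neurospheres. For *Flt1* the nearest genes were *Pmp22* (0.918), *Prss23* (0.915) and *Egln1* (0.903), for *Vwf* *Dnajc6* (0.968), *Vps54* (0.966) and *Acbd5* (0.964), and for *Kdr* *Phf8-ps* (0.958), *Timm23* (0.942) and *Hnrnpul1* (0.930). Undetected values were set to the detection level. The *Tie1* probe and the brighter *Emcn* probe had a range under 1 log2 unit and were not ranked.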

How the data were processed

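Total RNA of 9 conditions was applied to Illumina MouseWG-6 version 1.0 arrays, 1 array per condition. The log2 values deposited by the authors had been normalized and median centred in GeneSpring GX 10.02, and hold 1 constant per array and 1 baseline per probe. Signals were recovered from them, because each probe moves between arrays in whole steps above a floor of 50. A step was taken as 0.1 signal units, which sets the floor at 5.0 and does not affect ratios. The level was approximate for 2.45% of the 46643 probes. It was exact for all member probes except *Vwf* probe 102190215, which did not vary over the arrays and was set to the floor. The recovery was tested on simulated data. A further deposited table holds 9 signal columns whose names match no sample, and these were not used.

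The detection level of 29.1 was taken from background probes, which lie at the floor on 6 or more of the 8 remaining arrays: per array the 0.99 quantile of their signal, and then the median of these. Detected probes per array numbered from 20737 to 23008. The precision is limited by the single array per condition, so no test was run. Of the probes, 32794 had 1 gene symbol, 55 several and 13794 none. For listed genes with several probes, the one with the highest mean log2 signal was taken. All member probes are named, with, of each list, up to 2 genes most increased and 2 most decreased past 2-fold in a comparison, marker genes needed to give a list's level, and the 3 genes most like each member. The members and lists were chosen with earlier results of these data known. Alternatives were other scalings, detection levels, fold thresholds and probe choices. Sequences are from RefSeq (GRCm38.p6). Python 3.11.15, numpy 2.4.6, pandas 2.3.3, numba 0.67.0 and matplotlib 3.10.9 were used.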

Additional observations from a re-analysis of the deposited data

Results flagged for a closer look

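3 member probes differed from vehicle in opposite directions on the 2 stages at 1 dose of RA, each time by more than 1 yardstick SD. Each value has 1 array behind it, and the difference between the stages was not tested. The *Kdr* clone probe 103850735 differed from vehicle by -0.61 in neurospheres of day 29 and by 0.44 in EBs of day 8 with 10 nM RA. The *Vwf* probe 4670519 differed by 0.88 in neurospheres and by -0.92 in EBs with 10 nM RA. The *Tek* probe 6350541 differed by -0.44 in neurospheres and by 0.68 in EBs with 100 nM RA. None of these 6 differences reached 2-fold, and the *Tek* value in neurospheres ran from -0.65 to 0.03 over the other scalings of the arrays. Other probes also changed sign, with at least 1 of the 2 differences within 1 yardstick SD. At 100 nM, *Cdh5* differed by 0.07 in EBs and -0.99 in neurospheres, and *Pecam1* probe 4810139 by -0.96 and 0.16. At 10 nM, *Tek* differed by 1.00 in EBs and -0.09 in neurospheres, and *Flt1* probe 4920438 by -0.17 and 0.08.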

How the results depend on the processing

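No paired analysis was possible because each condition has 1 array and the labels carry no replicate numbers. Of 340 alternatives for counts and medians of the member probes, 271 stayed within 1.5 times the count or within the yardstick. Of 940 for single probes or genes, 876 stayed within 1 yardstick SD, 64 moved further and 0 of the called ones reversed. The differences of *Cdh5*, *Tek* and *Pecam1* between vehicle neurospheres and vehicle EBs of day 8 kept their direction and stayed past 2-fold, at 6.33 to 6.77, 4.13 to 5.13 and -3.39 to -3.02 (brighter *Pecam1* probe) over scalings and detection levels. *Vwf* did not stay past 2-fold in that comparison (-0.93 with a detection signal of 100). *Cdh5* stayed past 2-fold at 10 nM RA against vehicle in neurospheres (-2.0 to -1.44), and *Flt1* at 100 nM (1.04 to 1.72).

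With scaling to the 0.75 quantile of all probes, 2 member probes (against 1) were higher with 10 nM RA than with vehicle on day 8, 2 (against 1) were lower with 10 nM in neurospheres and 1 (against 0) was lower with 100 nM in neurospheres. With the median of all probes these counts were also 2, 2 and 1, and 0 (against 1) were lower with 100 nM than with 10 nM RA in neurospheres. Quantile normalization gave 2 higher with 10 nM on day 8, 2 lower with 10 nM in neurospheres and 0 lower with 100 nM than with 10 nM there. Without scaling, 0 probes (against 1) were lower in EBs of day 2 than in ES cells, 0 higher with 10 nM on day 8, 2 (against 0) higher with 10 nM in neurospheres and 0 lower with 100 nM than with 10 nM there, and the median at 100 nM against vehicle in neurospheres was 0.10, against -0.36. Over all probes tested, the share of 2-fold calls that were higher at 100 nM in neurospheres was 50.6%, and it ran from 33.0% with the 0.75 quantile to 85.1% without scaling. At 10 nM it was 59.7% and ran from 37.8% to 82.7%.

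A detection signal of 50 left 0 probes (against 1) higher in vehicle EBs of day 8 than on day 2, 0 (against 1) lower with 1 nM and 0 (against 1) higher with 10 nM RA on day 8, 1 (against 2) higher with 100 nM than with 10 nM on day 8 and 1 (against 2) higher with 100 nM in neurospheres. The medians were 0.74 (against -0.08) for EBs of day 2 against ES cells and -0.49 (against -0.07) for vehicle neurospheres against EBs. A detection signal of 100 gave 0 higher and 0 lower for vehicle EBs of day 8 against day 2, 0 lower with 1 nM, 0 higher with 10 and with 100 nM on day 8, and 0 higher with 100 nM than with 10 nM there. In neurospheres it gave 1 higher with 100 nM than with vehicle, and 1 higher and 0 lower with 100 nM than with 10 nM. Its medians were 0.80 and -0.85 in the 2 comparisons named.

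With no detection level, more probes passed 2-fold. The counts were 3 lower on day 2 against ES cells, 2 higher in vehicle EBs of day 8 against day 2, and 6 lower in vehicle neurospheres against vehicle EBs, with a median of -0.64. On day 8 they were 1 higher and 3 lower with 1 nM, 2 higher and 1 lower with 10 nM, 2 higher and 2 lower with 100 nM, and 2 lower with 100 nM than with 10 nM. In neurospheres they were 1 higher with 10 nM and 2 lower with 100 nM than with 10 nM, and 5 lower within 10 nM and within 100 nM RA against day 8. With each array's own background quantile as its detection level, chosen after seeing the data, 0 (against 1) were lower with 100 nM than with 10 nM RA in neurospheres.

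A threshold of 1.5-fold gave 3 lower on day 2 against ES cells. On day 8 it gave 1 higher with 1 nM, 2 higher and 4 lower with 10 nM, 2 higher and 3 lower with 100 nM, and 2 lower with 100 nM than with 10 nM. In neurospheres it gave 2 higher and 3 lower with 10 nM, 1 lower with 100 nM and 4 higher with 100 nM than with 10 nM. At 3-fold, 0 stayed higher or lower on day 2 against ES cells, 0 lower in vehicle EBs of day 8 against day 2, 0 lower with 1 nM and 0 higher with 10 nM on day 8, 0 higher with 100 nM than with 10 nM on day 8, 0 higher with 100 nM in neurospheres, and 0 higher or lower with 100 nM than with 10 nM there. Fewer or more calls at another threshold or detection level follow from its construction, and the cause of the shifts with scaling was not tested.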
